A study of Mus musculus with 2 samples.

Results

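The genes described here encode the main heat shock chaperones of the cytosol and of the mitochondrial matrix in mouse melanoma cells. There are 10 of them: the cytosolic HSP90 genes *Hsp90aa1* and *Hsp90ab1*, the cytosolic HSP70 genes *Hspa8*, *Hspa1a* and *Hspa1b*, the J protein genes *Dnaja1* and *Dnajb1*, the small heat shock protein gene *Hspb1*, and the mitochondrial chaperonin genes *Hspd1* and *Hspe1*. They were chosen by name, from the gene symbols of the probes on the arrays and with earlier results of these data known, by a rule that uses no measured value. The arrays carry 27790 genes or transcripts, and 18 probes read these 10. Of the 10 genes, 8 were detected, that is, the probe was well above background in the same line on both arrays; *Hspa1a* and *Hspa1b* were not.

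RNA of the B16F1-GFP-D line was compared with RNA of its maternal line, B16F1-GFP-M, on 2-colour Agilent arrays for mouse transcripts. B16F1 is a melanoma line of C57BL/6 mice, and both lines carry green fluorescent protein. B16F1-GFP-D grew from a single colony of GFP-positive cells that had persisted in tumour-free mice for about a year. The cells had been sorted from pooled organs of control and immunised animals, so the line is 1 clone whose organ and animal of origin are not known. The authors propagated both lines in medium with serum and antibiotics, and name no heat or drug treatment of the cells compared on the arrays. The dyes were exchanged between the arrays, which lay on 1 slide: B16F1-GFP-D was labelled with Cy3 on array 1 and with Cy5 on array 2, and B16F1-GFP-M with the other dye. The labels name no separate cultures or extracts, so there is 1 replicate per line and no test between the lines was possible. Each error given below is the standard deviation between the 2 arrays, which holds dye and hybridisation error and no variation between cultures. With 2 arrays, the precision of each value is limited.

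A channel had between 44.1% and 60.7% of its spots well above background, no spot was saturated, and 12540 genes were detected. The median log2 ratio of the detected genes was -0.01, with quartiles of -0.28 and 0.27, and the standard deviation between arrays, pooled over these genes, was 0.148. All 9 melanocyte markers looked at (*Tyr*, *Tyrp1*, *Dct*, *Pmel*, *Mlana*, *Mitf*, *Sox10*, *Gpr143* and *Slc45a2*) were detected, with a median log2 ratio of 0.06. This median was -0.18 on array 1 and 0.25 on array 2. None of 5 endothelial markers was detected, and 3 of 8 fibroblast markers and 3 of 7 leukocyte markers were. *Ptprc*, which encodes CD45, was not detected. The detected fibroblast markers had a median of 0.40 (*Pdgfrb* 0.83, *Col1a1* 0.40, *Col1a2* -0.33) and the leukocyte markers one of -0.01 (*Cd68* 0.44, *Cd3e* -0.01, *Lyz2* -0.11). The melanocyte markers ran from -0.92 for *Mitf* and -0.78 for *Dct* to 0.37 for *Gpr143*. For *Dct* the arrays gave -1.10 and -0.47. The second probes had means of -0.03 for *Dct* and -0.51 for *Mitf*. The part of the melanocyte markers in the chaperone differences was not tested.

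Heat shock proteins are molecular chaperones that bind unfolded or partly folded proteins. HSP70 proteins bind short hydrophobic stretches in cycles driven by ATP. J proteins deliver clients to them and stimulate their ATPase, and HSP90 acts later, on nearly folded clients such as kinases and steroid receptors. HSP60 and its lid HSP10 form a folding chamber in the mitochondrial matrix, and small heat shock proteins hold unfolded proteins without using ATP. Heat shock factor 1, HSF1, raises many of these genes in stressed cells by binding heat shock elements, which are inverted repeats of the unit GAA. Tumour cells often carry high chaperone levels.

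Promoter sequence is shown first, because many genes of this family are known to carry heat shock elements. RefSeq windows of 300 bases on the assembly GRCm38.p6, from 250 bases before a transcript's start to 50 after it, were at hand for 7 of the 10 genes, in 11 windows. Promoters of *Hspa8*, *Hsp90aa1* and *Hsp90ab1* were not analysed here. Windows were searched for 2 neighbouring units, written GAANNTTC or TTCNNGAA, and for 3, written GAANNTTCNNGAA or TTCNNGAANNTTC. These patterns together cover both strands, and each longer match holds shorter ones. The shorter motif was in 6 of these 11 windows, 1 for each of the 7 genes but *Dnajb1*, and in 15.1% of all 32851 promoter windows. The longer motif was in 2 of the 11, those of *Hspd1* and *Hspe1*, which cover the same bases, and in 0.603% of all windows. The 60 bases around the matches follow, with the matching units in capitals.
Dnaja1: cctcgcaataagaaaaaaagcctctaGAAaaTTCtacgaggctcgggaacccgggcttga
Hspa1a: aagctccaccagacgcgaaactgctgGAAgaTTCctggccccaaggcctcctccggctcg
Hspa1b: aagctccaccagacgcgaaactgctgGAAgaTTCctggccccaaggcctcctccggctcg
Hspb1: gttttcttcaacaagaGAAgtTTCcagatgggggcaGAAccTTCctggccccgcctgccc
Hspd1: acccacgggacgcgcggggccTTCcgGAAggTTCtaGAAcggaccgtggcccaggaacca
Hspe1: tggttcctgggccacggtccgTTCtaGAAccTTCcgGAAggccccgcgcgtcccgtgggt

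The *Dnaja1* stretch is chr4:40722318-40722377 on the plus strand, from 150 to 91 bases before the start. Those of *Hspa1a* (chr17:34972227-34972286) and *Hspa1b* (chr17:34959309-34959368) are on the minus strand, from 130 to 71 bases before the start, and read the same letters. The *Hspb1* stretch is chr5:135887786-135887845 on the plus strand, from 133 to 74 bases before the start, and holds the shorter motif at 2 separate places. The *Hspd1* and *Hspe1* stretches are the same bases, chr1:55088038-55088097, read on the minus and on the plus strand. These genes lie head to head. The stretch lies 110 to 51 bases before the start of *Hspe1* and 165 to 106 bases before 1 of the 2 starts of *Hspd1*. Within it, the run of units lies at -89 to -72 from the *Hspe1* start and at -144 to -127 from that *Hspd1* start. The other *Hspd1* start lies beyond the run, and its window held no match. The genes *Hspa1a* and *Hspa1b* lie 10120 bases apart, and their whole windows had identical letters at 296 of 300 positions. A match is a description of these letters and says nothing about whether a factor was bound in these cells.

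Transcripts of the HSP90 gene *Hsp90aa1* (2.48-fold) and of the HSP70 gene *Hspa8* (2.34-fold) were more abundant in B16F1-GFP-D than in the maternal line, past 2-fold on both arrays. At the brightest probe of each gene, the J protein genes *Dnajb1* (2.00-fold on the mean) and *Dnaja1* (1.81-fold) came next. They did not pass 2-fold on both arrays there. *Hspb1*, *Hsp90ab1* and *Hspd1* were 1.29- to 1.37-fold higher and *Hspe1* was 1.16-fold lower. A gene was counted as different when both arrays put it past 2-fold in 1 direction, a log2 ratio of 1 or more. This is a rule of size that 5.02% of all detected genes passed, 3.09% as higher in B16F1-GFP-D and 1.94% as lower. By this rule 2 of the 8 detected chaperone genes, *Hsp90aa1* and *Hspa8*, were higher and 0 were lower. At 1.5-fold on both arrays 4 of the 8 were higher, the 2 named and *Dnajb1* and *Dnaja1*, against 8.77% of all detected genes. At 3-fold none was, against 0.981% in either direction. Of the 8 detected genes, both arrays placed 7 higher in B16F1-GFP-D and 1, *Hspe1*, lower. Of all detected genes, 41.0% were higher on both arrays at any size and 42.8% lower. Their median log2 ratio was 0.66, with 0.56 on array 1 and 0.76 on array 2, against -0.01 for all detected genes. When detection too was judged on 1 array, *Hspa1b* counted as detected and the median was 0.36 from array 1 alone and 0.57 from array 2 alone. The 6 detected cytosolic genes had a median of 0.93. With the undetected *Hspa1a* and *Hspa1b* included, the median of the 10 was 0.41.

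**Figure D1:**
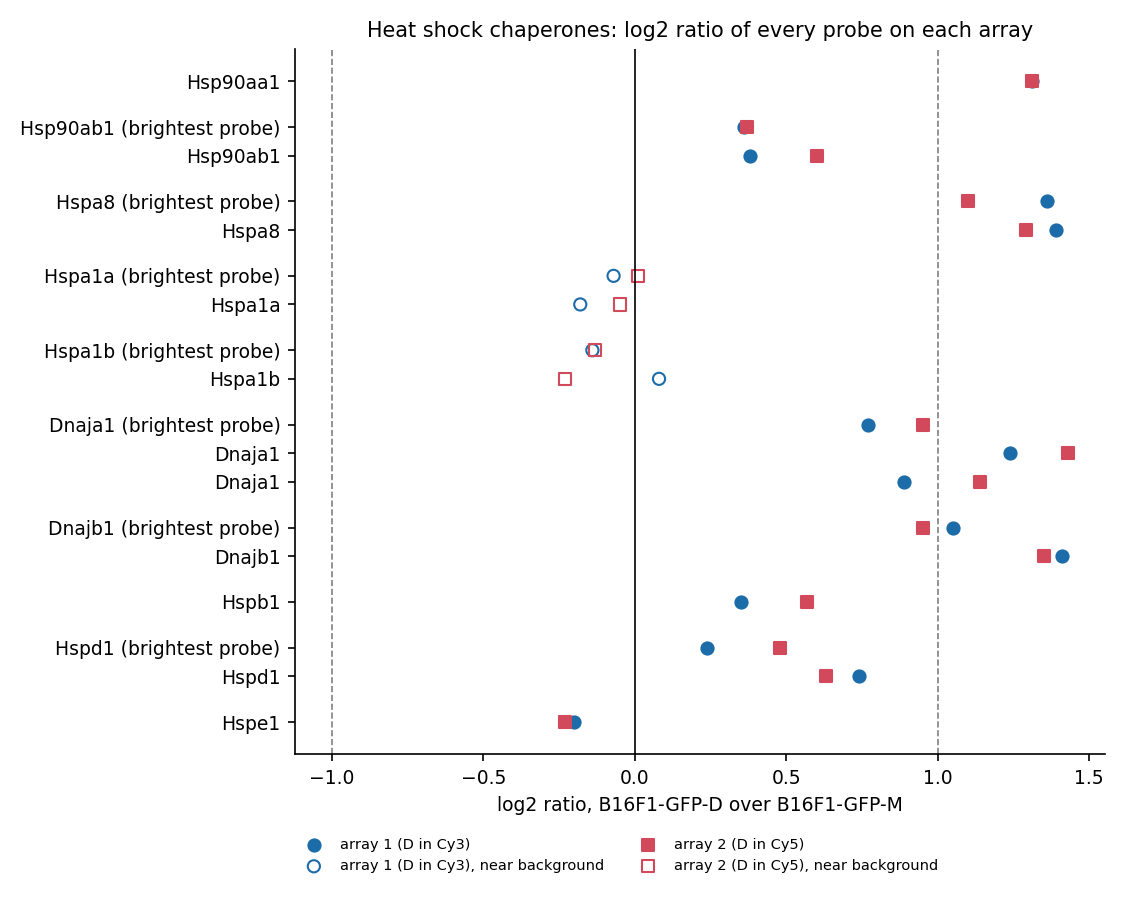
Log2 ratio of the lines, with B16F1-GFP-D over B16F1-GFP-M (horizontal axis) for each of the 18 probes of the chaperone genes (vertical axis), with a circle for array 1 and a square for array 2. Open symbols are probes near background, and dashed lines mark 2-fold; the probes of *Hsp90aa1*, *Hspa8*, *Dnaja1* and *Dnajb1* lie furthest to the right, and those of *Hspa1a* and *Hspa1b* lie around 0 near background.

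The HSP90 genes differed from each other. *Hsp90aa1*, the stress-inducible form, was read by 1 probe at chr12:111929254-111929313 of the mm9 genome, on the minus strand. Its normalized intensity was 45077.9 in B16F1-GFP-D and 18198.3 in B16F1-GFP-M on array 1, and 40980.8 and 16517.5 on array 2. Both values of B16F1-GFP-D were above both of B16F1-GFP-M, and the log2 ratio was 1.31 on each array, with a standard deviation of 0.002. Here and below, the share of all detected genes whose lines did not overlap in this way was not counted. Such a gap therefore only describes the printed intensities and cannot be read as setting a gene apart. The arrays were also not scaled to each other. Of all detected genes, 98.3% had a lower mean log2 ratio. *Hsp90ab1*, the constitutive form, was read by 2 probes on the minus strand of chromosome 17. The brighter one, at chr17:45705226-45705285, had intensities of 16593.0 in B16F1-GFP-D and 12966.5 in B16F1-GFP-M on array 1, and of 15414.2 and 11896.6 on array 2. The lines did not overlap there either, but the log2 ratio was smaller, 0.36 on array 1 and 0.37 on array 2, or 1.29-fold. The other probe, at chr17:45706503-45706562, gave 0.38 and 0.60. No value of *Hsp90ab1* came near the 1.31 of *Hsp90aa1*.

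*Hspa8* encodes HSC70, the constitutive cytosolic HSP70, which folds new proteins and strips clathrin from vesicles. Its probes lie on the plus strand of chromosome 9, at chr9:40612674-40612733 (the first listed below) and chr9:40611142-40611201, and their letters are shown because both passed the rule of 2-fold.
Hspa8 downstream probe: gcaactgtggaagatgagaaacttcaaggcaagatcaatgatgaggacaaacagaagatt
Hspa8 upstream probe: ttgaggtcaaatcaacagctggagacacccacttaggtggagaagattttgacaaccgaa

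The downstream probe, the brighter of the pair over both arrays, had intensities of 19073.7 in B16F1-GFP-D and 7455.2 in B16F1-GFP-M on array 1, and of 8637.2 and 4040.5 on array 2. Both lines were thus brighter on array 1 at this spot, but each value of B16F1-GFP-D was above each of B16F1-GFP-M, with log2 ratios of 1.36 and 1.10 and a standard deviation of 0.183. The upstream probe had 10087.2 and 3851.1 on array 1 and 9990.6 and 4076.6 on array 2. Here too the lines did not overlap, and the log2 ratios were 1.39 and 1.29, or 2.53-fold on average.

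*Hspa1a* and *Hspa1b* encode the heat-inducible HSP70, which is scarce in many unstressed cells and abundant after heat. Neither passed the detection rule, so no fold is given. The probes of *Hspa1a*, at chr17:35106766-35106825 and chr17:35106796-35106855 on the minus strand, share bases with each other and were not well above background in either line on either array. Their normalized intensities were 62.5 to 68.8 in B16F1-GFP-M and 60.9 to 65.4 in B16F1-GFP-D, and the raw spots were 1.14 to 2.04 times as bright as their local background. The brighter probe of *Hspa1b*, at chr17:35095608-35095667 on the minus strand, was well above background only in Cy5, which held B16F1-GFP-M on array 1 and B16F1-GFP-D on array 2. Its sequence is shown because it is the only probe of the pair of genes with any spot well above background.
Hspa1b brighter probe: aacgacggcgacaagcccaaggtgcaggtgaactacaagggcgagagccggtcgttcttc

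Its intensity was 82.7 in B16F1-GFP-D and 91.1 in B16F1-GFP-M on array 1, and 78.7 and 86.3 on array 2. The other *Hspa1b* probe, at chr17:35094200-35094259, had log2 ratios of 0.08 and -0.23 and was not well above background in any channel. No difference of the inducible HSP70 genes between the lines was detectable at this signal. No run of 25 bases was shared between a probe of *Hspa1a* and one of *Hspa1b*, or between a chaperone probe and a probe of any other gene on the array. The genes themselves are near-identical copies, and cross-hybridisation of their transcripts, or of processed pseudogenes of any chaperone gene, was not tested.

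**Figure D2:**
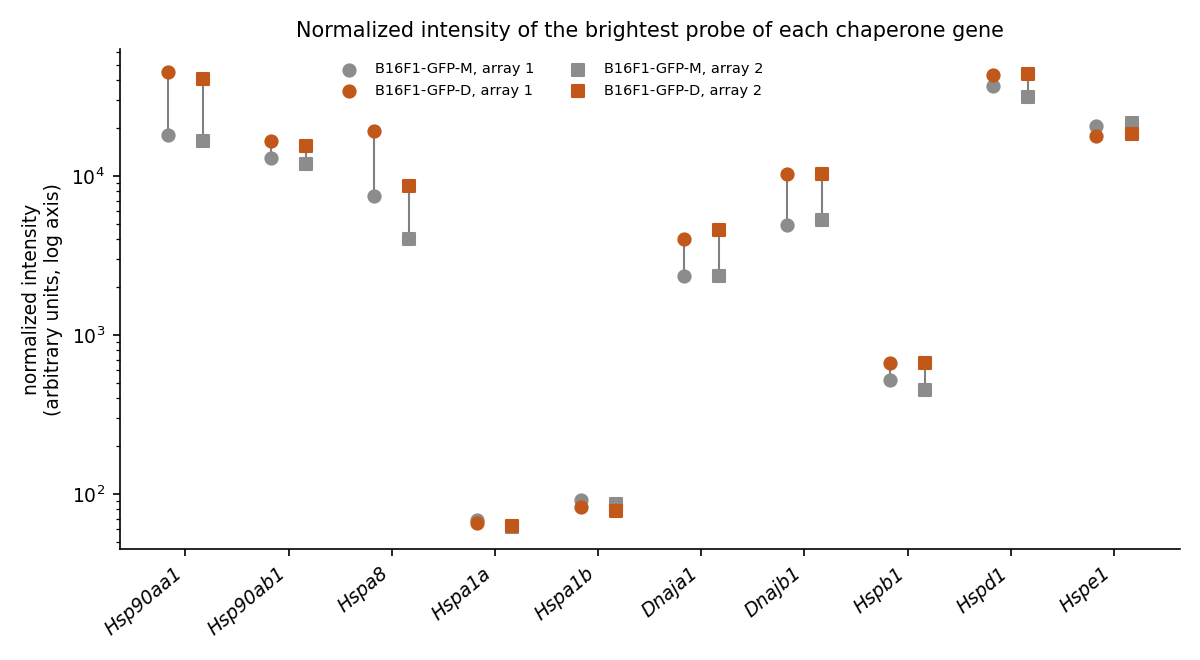
Normalized intensity in arbitrary units on a log axis (vertical) of the brightest probe of each chaperone gene (horizontal), in B16F1-GFP-M (grey) and B16F1-GFP-D (orange) on array 1 (circles) and array 2 (squares), with a line joining the values of an array. *Hspa1a* and *Hspa1b* lie under 100, near background, and the vertical gap is wide for *Hsp90aa1*, *Hspa8*, *Dnaja1* and *Dnajb1* and is turned for *Hspe1*; heights of different genes are not comparable, since probes differ in brightness.

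Neither J protein gene passed the rule of 2-fold at its brightest probe. *Dnajb1* encodes HSP40, a class B J protein that works with HSP70 in refolding and is strongly induced by heat. Its brighter probe, at chr8:86135660-86135719 on the plus strand, had intensities of 10218.0 in B16F1-GFP-D and 4945.8 in B16F1-GFP-M on array 1, and of 10237.9 and 5289.7 on array 2. Both values of B16F1-GFP-D were above both of B16F1-GFP-M. The log2 ratios were 1.05 and 0.95, so that this probe missed the 2-fold rule on array 2 alone. The other probe, at chr8:86134225-86134284, was dimmer, with 778.2 and 292.8 on array 1 and 879.8 and 344.3 on array 2, and passed the rule with log2 ratios of 1.41 and 1.35.

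*Dnaja1* encodes a class A J protein with a farnesylated end that works with HSC70. It was read by 3 probes on the plus strand of chromosome 4. The brightest, at chr4:40680660-40680719, had intensities of 4013.5 in B16F1-GFP-D and 2352.7 in B16F1-GFP-M on array 1, and of 4558.9 and 2366.3 on array 2. The lines did not overlap, with log2 ratios of 0.77 and 0.95, or 1.81-fold. A second probe, at chr4:40680353-40680412, gave 0.89 and 1.14. The third spans chr4:40677306-40678761, more than its 60 bases, and so crosses an intron. It passed the rule with 1.24 and 1.43, or 2.52-fold. Each of the 3 probes was brighter in B16F1-GFP-D, whichever array was read. In all, 5 of the 14 detected chaperone probes passed the rule, all as higher, against 2.64% of all detected probes: the single *Hsp90aa1* probe, both of *Hspa8*, and 1 each of *Dnaja1* and *Dnajb1*. The letters of the *Dnaja1* and *Dnajb1* probes that passed follow, since they carry the larger differences of these genes.
Dnaja1 probe across an intron: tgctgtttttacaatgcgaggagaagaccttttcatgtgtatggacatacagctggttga
Dnajb1 upstream probe: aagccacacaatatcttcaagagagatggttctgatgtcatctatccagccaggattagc

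*Hspb1* encodes HSP27 (HSP25 in mouse), a small heat shock protein that binds unfolding proteins and actin filaments. Its only probe, at chr5:136364927-136365114 on the plus strand, also crosses an intron. It had 666.1 in B16F1-GFP-D and 522.6 in B16F1-GFP-M on array 1, and 665.3 and 448.9 on array 2, with log2 ratios of 0.35 and 0.57. B16F1-GFP-D was the higher on both arrays, by 1.37-fold, a difference larger than the standard deviation of 0.154 and below 2-fold.

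The mitochondrial chaperonin genes, which share the promoter stretch shown above, did not differ alike between the lines. *Hspd1*, which encodes HSP60, had intensities of 43445.9 in B16F1-GFP-D and 36780.9 in B16F1-GFP-M on array 1, and of 43618.1 and 31183.0 on array 2, at its brighter probe (chr1:55134829-55134888, minus strand). The log2 ratios were 0.24 and 0.48, or 1.29-fold higher in B16F1-GFP-D. The other probe, at chr1:55135463-55135522, gave 0.74 and 0.63, or 1.61-fold. *Hspe1*, which encodes HSP10, was read by 1 probe at chr1:55147922-55147981 on the plus strand, with 17839.2 in B16F1-GFP-D and 20537.6 in B16F1-GFP-M on array 1, and 18260.7 and 21465.7 on array 2. The B16F1-GFP-M values were the higher, the lines did not overlap, and the log2 ratios were -0.20 and -0.23. The mean kept this direction in 10 of 11 alternative settings, some of which cannot change a ratio. With the arrays centred on their medians in place of loess, the mean was 0.11, with -1.27 on array 1 and 1.49 on array 2. The gap between *Hspd1* and *Hspe1* was present on each array, from 0.24 against -0.20 to 0.48 against -0.23.

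Set in order of the mean log2 ratio at the brightest probe of each gene, *Hsp90aa1* (1.31) and *Hspa8* (1.23) overlapped in their array values. *Dnajb1* (1.00) lay below both on each array, and *Dnaja1* (0.86) reached 0.95 on array 2, the value of *Dnajb1* there. *Hspb1* (0.46), *Hsp90ab1* (0.36) and *Hspd1* (0.36) could not be ordered within their spread, and *Hspe1* (-0.22) lay below them on both arrays. This order depends on the probe. The other *Dnajb1* probe (1.41 and 1.35) lay above *Hsp90aa1* on both arrays, and 1 *Dnaja1* probe had a mean of 1.33. The other *Hspd1* probe (0.74 and 0.63) lay above *Hspb1* and *Hsp90ab1* on both arrays. These are differences between the lines, not levels. Among all detected genes, the means of *Hspa8*, *Dnajb1* and *Dnaja1* lay above those of 97.8%, 96.2% and 94.5%, and those of *Hspb1*, *Hsp90ab1* and *Hspd1* above 84.5%, 80.4% and 80.3%. That of *Hspe1* lay above 30.0%.

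**Figure D3:**
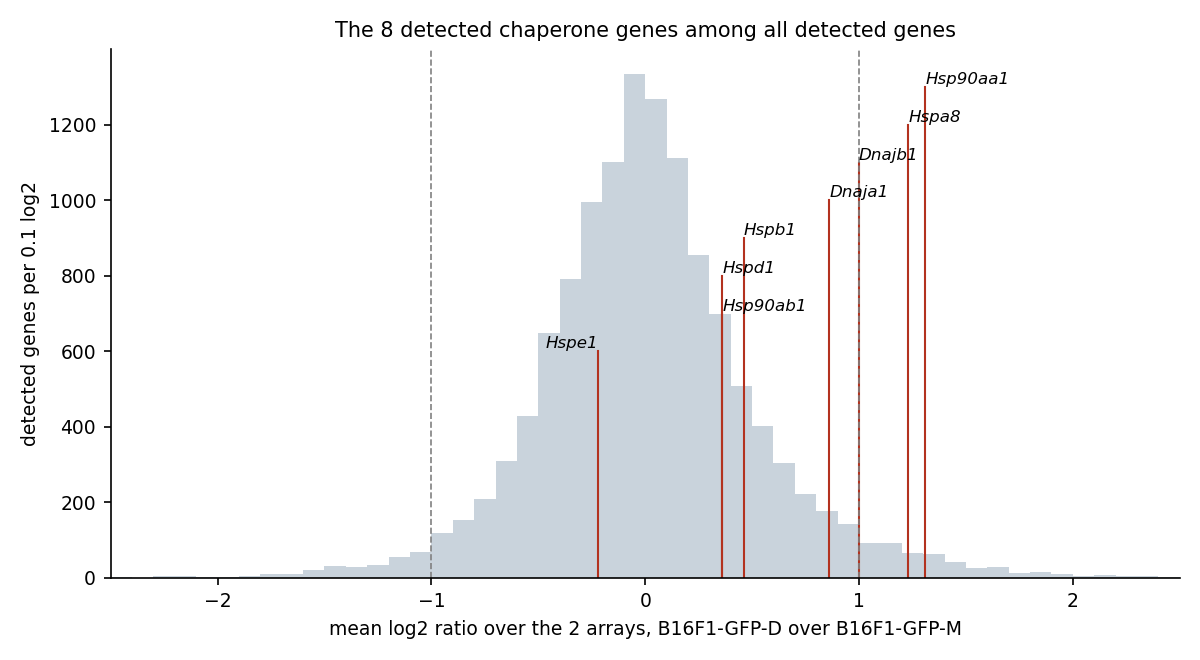
Number of detected genes per 0.1 of the mean log2 ratio, with B16F1-GFP-D over B16F1-GFP-M (grey bars), with a red line at each of the 8 detected chaperone genes; line heights only separate the names, and dashed lines mark 2-fold. *Hsp90aa1*, *Hspa8*, *Dnajb1* and *Dnaja1* lie in the right flank, above 94.5% or more of the genes, and *Hspe1* lies left of 0.

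Where a gene had more than 1 detected probe, the probe nearer to the transcript's 5′ end on mm9 gave the larger log2 ratio in 5 of 5 chaperone genes. The upstream minus downstream difference was 0.48 for *Dnaja1*, 0.38 for *Dnajb1*, 0.33 for *Hspd1*, 0.13 for *Hsp90ab1* and 0.12 for *Hspa8*, with the outermost probes of *Dnaja1* compared. For *Hsp90ab1* and *Hspa8* it was smaller than the standard deviation between arrays of 1 of the gene's probes, 0.157 and 0.183. Over all 729 genes with such probes that were at least 1.25-fold higher in B16F1-GFP-D on their mean, the upstream probe was the higher in 50.3%, with a median difference of 0.00. In the 5 chaperone genes the downstream probe was also the brighter, which was so in 68.4% of the 729 genes. The part of brightness in this difference was not tested. When each gene was read from the median of its probes, *Dnajb1* also passed the 2-fold rule, which 3.76% of all detected genes then did.

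The wider chaperone network was read from 10 lists of related genes, which hold 103 distinct genes with 12 in more than 1 list. Of these 97 were detected, and 2 were called higher and 3 lower, shares near the 3.09% and 1.94% of all detected genes. Both arrays placed all 6 detected of 8 other cytosolic HSP70 and HSP110 genes higher in B16F1-GFP-D, with a median log2 ratio of 0.45 and 0 called. *Hsph1*, the heat-inducible HSP110 that exchanges the nucleotide of HSP70, was the highest, with 0.77 and 1.28 on the arrays and a mean of 1.03. *Hspa4*, another HSP110, was the lowest with 0.23. Among the 25 cochaperones of HSP90 and HSP70, all detected, 20 were higher on both arrays and 4 lower, with a median of 0.24 and 1 called. That gene, *Fkbp4*, encodes FKBP52, a prolyl isomerase of the HSP90 complex with steroid receptors, and was 2.70-fold higher, with log2 ratios of 1.42 and 1.45. *Stip1*, which encodes HOP, the bridge between HSP70 and HSP90, had 1.13 and 0.97. It is carried by 1 detected probe, as its other probe (mean 0.09) was near background. *Cdc37*, which brings kinases to HSP90, had -0.12 and -0.29, with a mean that was above 0 in 2 of 11 alternative settings, and a mean of 0.31 at its second probe. *Cdc37l1*, its homologue, was the lowest with -0.75.

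Other J proteins did not share the direction of *Dnaja1* and *Dnajb1*. Of 14 detected of 15, 4 were higher on both arrays, 5 lower and 5 mixed, with none called. Their median was 0.11 for the means but -0.05 on array 1 and -0.02 on array 2, so its sign is not settled. *Dnajc9*, a histone chaperone, was the highest with 1.01, and *Dnajb2*, which is mainly neuronal, was the lowest with -0.87. Of the other small heat shock proteins, 6 of 8 were detected, 3 higher and 3 lower. *Cryab*, the alpha B crystallin, was the highest with 0.56, and *Hspb8*, which works with BAG3 in selective autophagy, was called lower at -1.08 and -1.19, or 2.20-fold. Its size depended on the processing, with a mean of -1.64 at an offset of 0 and -1.20 without background subtraction. Over the alternative settings it ranged from -1.88 with the series value table to -1.08 with array 1 alone.

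The CCT chaperonin folds actin and tubulin, and 7 of its 8 subunit genes were higher on both arrays, with a median of 0.44 and none called. *Tcp1* was the highest with 0.60. *Cct4* was the exception with -0.26, and its second probe had 0.04. Prefoldin, which hands clients to CCT, had a median of 0.11 over 6 genes, 3 higher on both arrays and 3 mixed, from *Vbp1* with 0.59 to *Pfdn6* with -0.17.

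Of 10 mitochondrial chaperones other than HSP60 and HSP10, all detected, 7 were lower on both arrays and 1 was higher, with a median of -0.33 and 0 called. *Hspa9*, which encodes mortalin, the HSP70 of the matrix, had -0.81 and -0.99, and its probes had means of -0.90 and -0.99. The difference was thus opposite to that of its cytosolic counterpart *Hspa8* on both arrays. *Hscb*, a J protein of iron-sulphur cluster assembly, was the lowest with -0.96, and *Trap1*, the mitochondrial HSP90, was the highest with 0.67. Of 8 mitochondrial proteases, 4 were higher on both arrays and 4 lower. *Spg7*, a subunit of an inner membrane protease, was the highest with 0.54, and *Lonp1*, the Lon protease of the matrix, was called lower at -1.05 and -1.42, or 2.36-fold.

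The heat shock factors were listed with *Hsbp1*, which encodes a protein that binds and restrains HSF1. *Hsf1* had log2 ratios of -0.42 and -0.43 at its brightest probe, and its 3 probes ranged from -0.43 to 0.17. Of the 4 genes of this list, all detected, 3 were lower on both arrays (*Hsf1*, *Hsf2* and *Hsbp1*), with a median of -0.23, which turned to 0.12 when each gene was read from the median of its probes. *Hsf4*, which acts mainly in the lens, was the highest of them with 0.52. The other heat-inducible targets of HSF1 were of mixed direction. Of 23 genes 21 were detected, 13 were higher on both arrays and 6 lower, with a median of 0.56. Besides *Fkbp4*, *Mrpl18*, a mitochondrial ribosomal protein gene with a heat-inducible form, was called higher at 1.05 and 1.19, or 2.18-fold. Called lower, besides *Hspb8*, was *Hmox1*, the haem oxygenase that also answers oxidative stress, with -1.65 and -1.55, or 3.03-fold, while its second probe had a mean of -0.41. All 5 related genes called by the rule were well above background in both lines. In the windows of 84 related genes, the longer heat shock motif was found in those of *Chordc1*, *Dnajb6* and *Hsph1*.

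**Figure D4:**
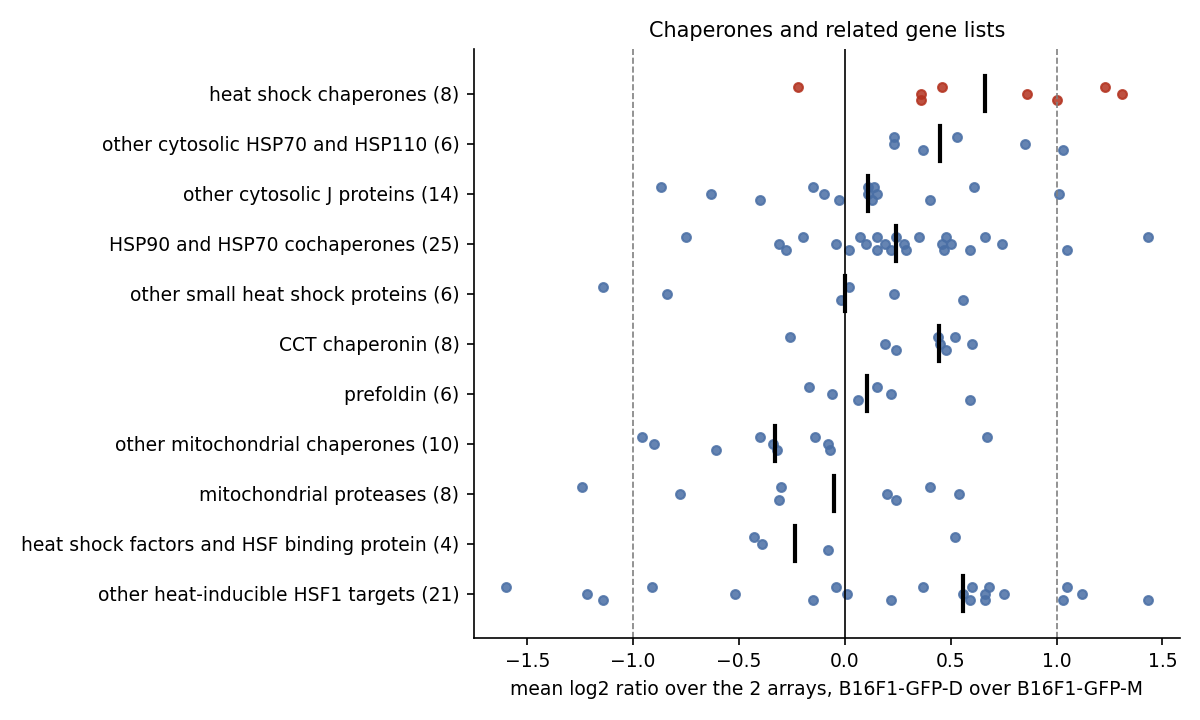
Mean log2 ratio of the lines, with B16F1-GFP-D over B16F1-GFP-M (horizontal axis) of each detected gene (points) in the chaperone group (red) and in the 10 related lists (blue), with the number of detected genes in brackets, black bars at the medians and dashed lines at 2-fold. Medians run from 0.66 for the heat shock chaperones to -0.33 for the other mitochondrial chaperones, and heights within a row only separate the points.

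The mean of 7 of the 8 detected chaperone genes kept its direction in all 11 alternative settings, the exception being *Hspe1* under median centring. Of these settings, Aquantile scaling and the other detection filters leave each gene's ratio as it is, and the series value table repeats the software's ratio. *Hsp90aa1* ranged from 1.26 to 1.66 and *Hspa8* from 1.10 to 1.46, *Dnajb1* from 0.95 to 1.25 and *Dnaja1* from 0.77 to 1.05. *Hsp90ab1* ranged from 0.32 to 0.66, *Hspb1* from 0.35 to 0.57 and *Hspd1* from 0.24 to 0.74. Median centring ended both calls. The arrays then stood apart, with a median over all detected genes of -0.86 on array 1 and 1.02 on array 2. *Hsp90aa1* then had 0.24 and 3.08, and *Hspa8* 0.30 and 2.62. As for *Hspe1*, the arrays differed in sign for *Hsp90ab1* (-0.71 and 2.04), *Dnaja1* (-0.28 and 2.37), *Hspb1* (-0.61 and 1.63) and *Hspd1* (-0.83 and 2.31). *Dnajb1* had -0.00 and 2.51. Transcripts were measured in bulk RNA, where fewer cells with a transcript and less of it per cell cannot be told apart, and no chaperone protein was measured here. The state of the cultures at harvest and the line cannot be told apart with 1 replicate each.

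**Figure D5:**
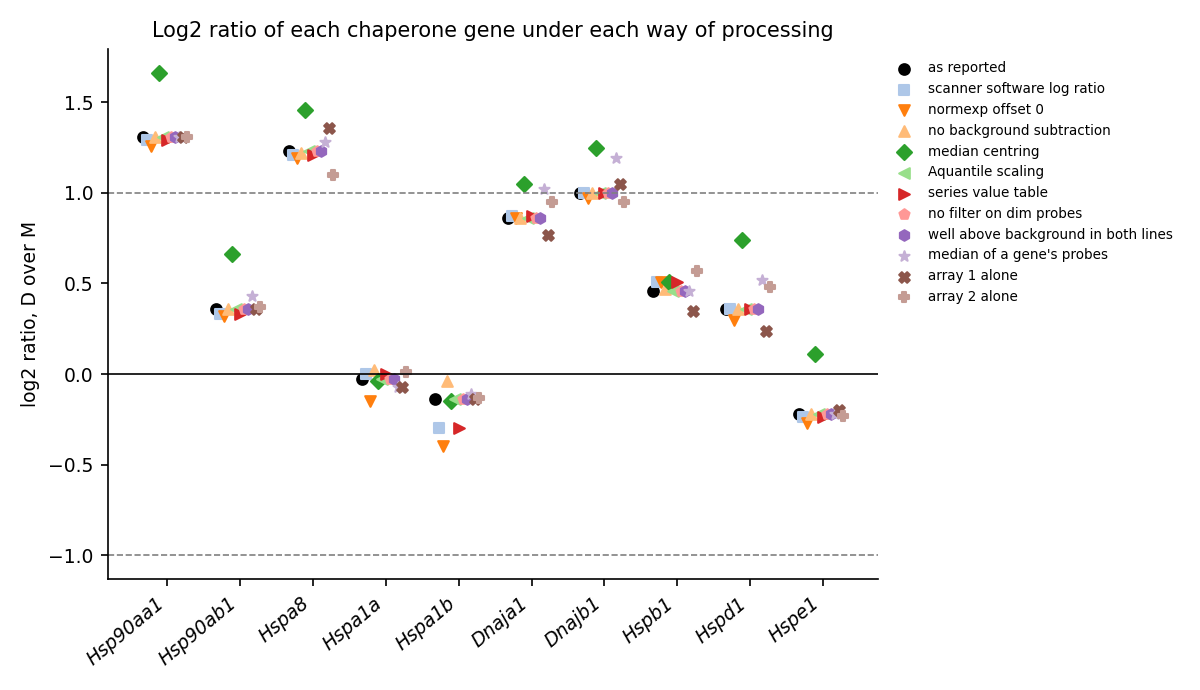
Log2 ratio of the lines, with B16F1-GFP-D over B16F1-GFP-M (vertical axis) of each chaperone gene (horizontal axis) as reported (black circles) and under each of 11 alternative settings (other symbols), with dashed lines at 2-fold. Median centring (green diamonds) gives the highest value for *Hsp90aa1*, *Hspa8*, *Hsp90ab1*, *Dnaja1*, *Dnajb1*, *Hspd1* and *Hspe1*, and it alone places *Hspe1* above 0.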

How the data were processed

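Both lines were hybridised together on 2 Agilent arrays with exchanged dyes. The deposited spot and background intensities, in both dyes, are those the authors read with Agilent Feature Extraction 10.7.3.1, not normalized. The software's own log10 ratio of Cy5 over Cy3 was deposited beside it, after background subtraction and dye normalization by the authors' software, and the log10 values of the series table are the same to within 0.005, with medians of 0 in the original dye direction. Its flags gave outlier spots, left out (143 and 176), and spots well above background. The p-value that the software deposited for each spot was not used.

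In R 4.3.3 with limma 3.58.1, 43379 spots of 41174 probes that are not controls were background-corrected (normexp, offset 50). The offset pulls dim spots towards a log2 ratio of 0. Each array was then normalized by loess. Every ratio was put on the log2 scale with B16F1-GFP-D on top, and 41164 probes had a value on both arrays. Of 28075 probes with a RefSeq accession, 27198 were matched to current symbols. A gene was read from its brightest probe, and arrays were not scaled to each other. Further steps used Python 3.11.15, pandas 2.3.3, numpy 2.4.6 and matplotlib 3.10.9. The procedure was tested on simulated arrays. Probes are placed on mm9 as the array files give it, for which no annotation was used here, so that coding and untranslated parts were not told apart.

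With 1 replicate per line no test was made, and 2-fold on both arrays is a rule of size. The alternatives were the software's ratio, the series value table, median centring, Aquantile scaling, an offset of 0, the uncorrected mean signal, other detection filters, the median over probes, single arrays, and other fold thresholds. Named genes are all chaperone genes and, of each related list, the genes called, the highest and the lowest, with *Hspa9*, *Hsph1*, *Stip1*, *Cdc37* and *Hsf1*. The chaperone genes and the lists were chosen with earlier results of these data known. The second-generation line B16F1-GFP-DB was not analysed here.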

Additional observations from a re-analysis of the deposited data

How the results depend on the processing

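No paired analysis was possible because there is a single replicate of each line. A slide block could not be fitted, with 1 slide in all. Median centring gave 0 chaperone genes called higher, among 64 genes called in all, and moved medians to 0.89 for the chaperone genes, 0.36 for cochaperones, -0.06 for small heat shock proteins, 0.69 for CCT, 0.23 for prefoldin, -0.16 for other mitochondrial chaperones, 0.14 for mitochondrial proteases, -0.12 for heat shock factors and 0.75 for HSF1 targets. Under the software's own ratio, and alike with the series value table, medians were 0.55 for other HSP70 and HSP110, 0.09 for J proteins, 0.03 for small heat shock proteins, -0.31 for heat shock factors and 0.53 for HSF1 targets. Over all genes these settings called 1356 and 1352, and an offset of 0 called 1077, against 630. An offset of 0 gave 0.56 for HSP70 and HSP110, 0.39 for CCT, -0.31 for heat shock factors and 0.52 for HSF1 targets, and no background subtraction gave 0.08 for J proteins. Without the filter on dim probes the medians were 0.41 for the chaperone genes, 0.30 for HSP70 and HSP110 and 0.37 for HSF1 targets. With probes well above background in both lines the heat shock factors had -0.39. The median of a gene's probes gave 0.06 for J proteins, 0.36 for CCT, -0.17 for mitochondrial chaperones, 0.12 for mitochondrial proteases, 0.12 for heat shock factors and 0.55 for HSF1 targets. With 1 array alone, where detection was judged on that array too, medians lay between 0.36 and 0.57 for the chaperone genes, -0.06 and -0.05 for J proteins, -0.07 and 0.03 for small heat shock proteins, -0.40 and -0.30 for mitochondrial chaperones, -0.25 and -0.16 for heat shock factors and 0.40 and 0.46 for HSF1 targets. The number of chaperone genes called higher was 4 at 1.5-fold and 0 at 3-fold, which the threshold sets. It was 3 with array 1 alone, where the rule asks for 2-fold on that array only. Of the 16652 genes detected on that array, 4.79% were then called in either direction. Aquantile scaling leaves each ratio as it is, so it could move none of these medians. Where a value moved, the cause was not tested, and signal near background limits *Hspa1a* and *Hspa1b*.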
